A study of Zea mays with 10 samples.

Results

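The 285 clones described here are maize EST probes chosen by the log2 ratio between an F1 hybrid and each of its inbred parents. Their mean ratio had one sign and a size of at least 0.15 against both parents. This places the hybrid on the same side of both only if the ratios of all arrays run in one direction, which the sources do not settle. The clones were taken from 5240 with values on all 10 cDNA arrays, out of 5400 clones printed as 16200 spots, 3 spots to a clone. The other 160 clones lacked a value on at least 1 array. The means that chose them were L1, over the 5 arrays of B73 against the hybrid, and L2, over the 5 arrays of H99 against the hybrid. Both means were negative in 207 clones, called negative clones below, and positive in 78, called positive clones. L1, L2 and their average d therefore describe these clones and test nothing about them.

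The hybridised samples were immature ears at stage V15 of the B73 x H99 F1 hybrid, of inbred B73 and of inbred H99, each a bulk of 10 field-grown plants. The hybrid was hybridised together with 1 of the inbreds on each array. On 3 forward arrays per inbred, numbered 1 to 3, the hybrid was labelled with Cy3 and the inbred with Cy5, and on 2 reversed arrays, numbered 4 and 5, the dyes were exchanged. Each genotype was represented by 1 RNA pool that was labelled anew for every array, so that all SDs, standard errors and p-values below cover labelling and hybridisation and not the spread between plants. Both sets of arrays shared the hybrid's pool, so that L1 and L2 are not independent measurements. It is not settled by the sources whether the deposited ratio runs from hybrid to inbred or the other way, nor whether its sign had already been turned on the reversed arrays. Signs are therefore given without saying whether a transcript was more or less abundant in the hybrid, and the reversed arrays were used as deposited. Over all complete clones, forward and reversed B73 arrays correlated at 0.381 to 0.542. Forward and reversed H99 arrays correlated at only -0.169 to 0.223, so that L2 averages orientations that hardly agreed. Log ratios hold no expression levels, so that the labelled tissue could not be checked by its markers. In a bulk of tissue, fewer cells of a type and less RNA per cell cannot be told apart.

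Heterosis is the better growth or yield of a hybrid compared with its parents, and maize hybrids are its best known case in crops. At the level of transcripts, a hybrid midway between its parents is called additive, and one outside the range of both is called overdominant or underdominant. In the immature ear the inflorescence meristems form the spikelets and florets that later carry kernels, a phase of rapid cell division and growth. Exchanging the dyes between samples shows which ratios depend on the dye rather than on the sample, since the dyes differ in incorporation and brightness from one sequence to another.

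The negative clones were the larger and more extreme set. Their median L1 was -0.42, with a range of -1.56 to -0.151, and their median L2 was -0.21, with a range of -0.608 to -0.15. L1 was larger in size than L2 in 186 of the 207. In the positive clones the median L1 was 0.22, within 0.151 to 0.515, and the median L2 was 0.19, within 0.151 to 0.329, with L1 the larger in 54 of 78. The negative clones made up 15.7% of the 1316 clones with L1 at or below -0.15 and 52.8% of the 392 with L2 at or below -0.15. The positive clones made up 6.12% of the 1275 clones with L1 at or above 0.15 and 19.1% of the 408 with L2 at or above 0.15. All complete clones had a median L1 of -0.015 and a median L2 of -0.002.

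**Figure D1:**
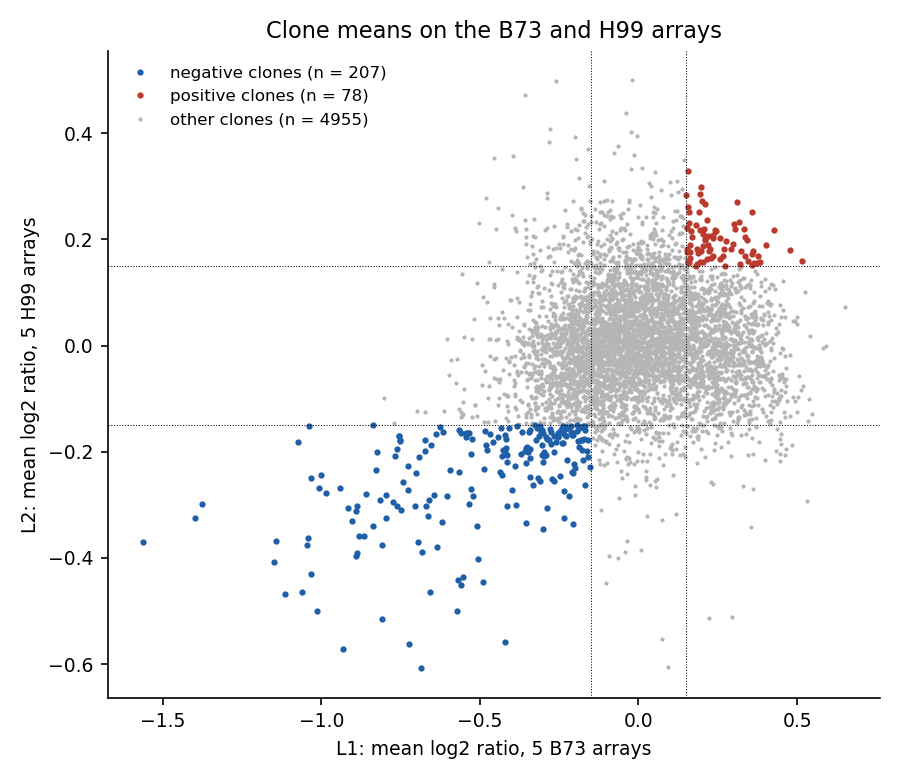
Mean log2 ratio per clone over the 5 B73 arrays (horizontal axis) and over the 5 H99 arrays (vertical axis), with negative clones in blue, positive clones in red, the other complete clones in grey and dotted lines at 0.15 in size on each axis. The 207 negative clones reach -1.56 on the B73 axis, whereas the 78 positive clones end at 0.515.

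Membership was a matter of degree near the threshold. The 5 negative clones nearest inside it had a smaller mean of 0.15 to 0.1513 in size, and the 5 nearest outside 0.1473 to 0.1488. Among positive clones these values were 0.1507 to 0.1521 inside and 0.1472 to 0.1494 outside. Between 0.15 and 0.16 lay 30 negative and 23 positive clones, and 28 and 15 clones of these signs lay between 0.14 and 0.15. The 3 spots of a clone agreed about as closely as elsewhere, with a median SD between spots of 0.061 in negative and 0.055 in positive clones, beside 0.058 in the other clones. Between the arrays of an inbred both sets varied more than the other clones. The median SD between B73 arrays was 0.228 in negative and 0.165 in positive clones, beside 0.153. Between H99 arrays it was 0.167 and 0.174, beside 0.127.

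The sign was held on all 10 arrays by 107 of the 207 negative clones. It was held on 9 arrays by 74, on 8 by 13 and on 7 or fewer by 13. Of the 78 positive clones, 26 held their sign on all 10 arrays, 28 on 9, 16 on 8 and 8 on 7 or fewer. Both sets thus contain clones whose mean passed 0.15 although single arrays pointed the other way.

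Which arrays those were differed between the sets. The median of the negative clones was -0.55, -0.51 and -0.44 on the forward B73 arrays 1, 2 and 3, and -0.37 and -0.45 on the reversed B73 arrays 4 and 5. On the H99 arrays it was -0.33, -0.25 and -0.28 on the forward and -0.11 and -0.15 on the reversed. The reversed H99 arrays thus gave the smallest values, and on array 4 of that set 47 of 207 negative clones were above 0. The positive clones had medians of 0.28, 0.28 and 0.37 on the forward and 0.23 and 0.11 on the reversed B73 arrays. Their medians on the H99 arrays were 0.28, 0.16 and 0.042 on the forward and 0.24 and 0.22 on the reversed. Forward H99 array 3 stood apart for them, with 31 of 78 positive clones below 0. Leaving out that array raised the number of positive clones to 136, the only array whose omission moved either number by more than 1.5 times.

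**Figure D2:**
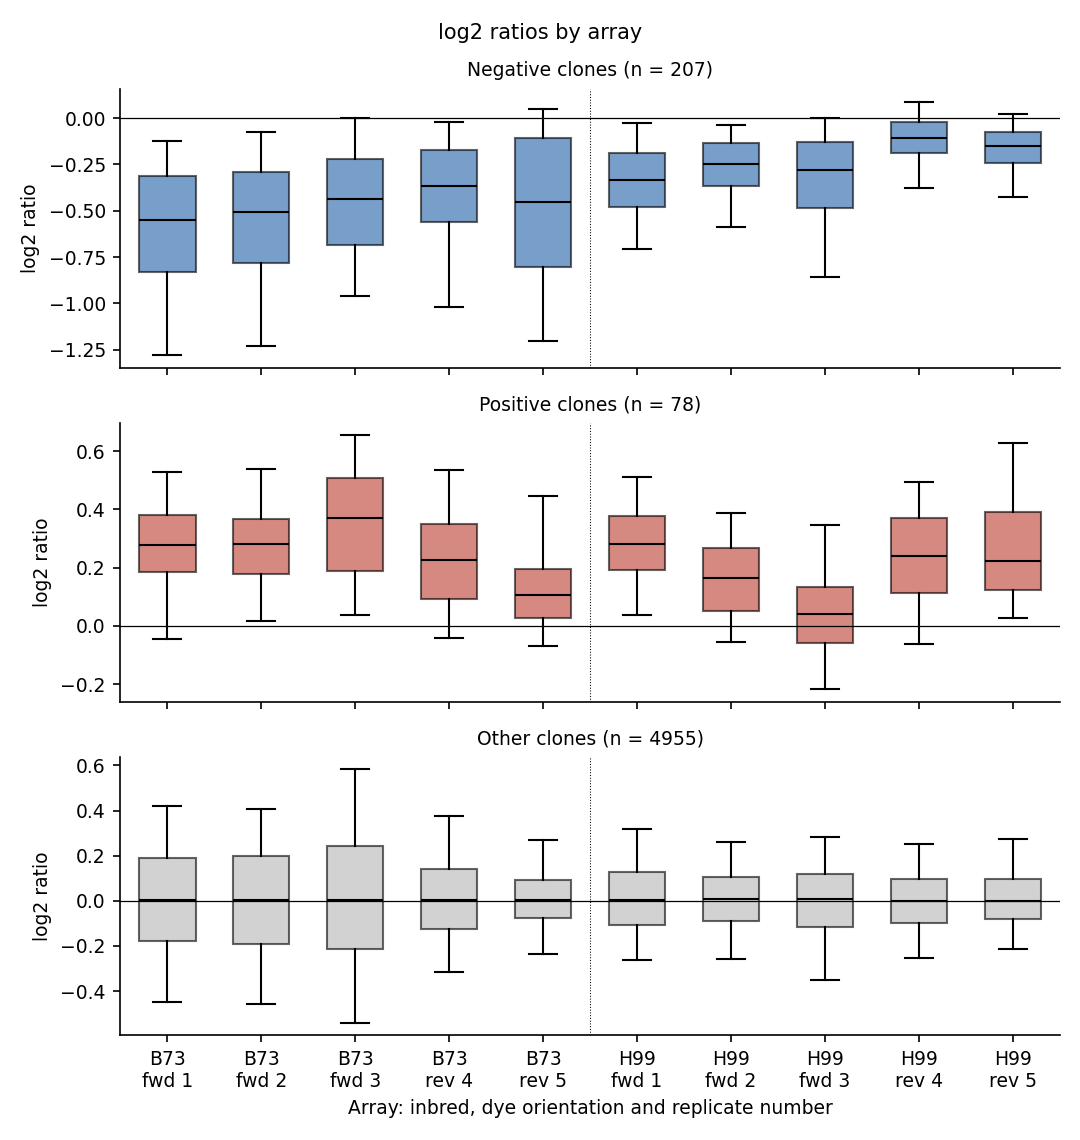
log2 ratios on each array for the 207 negative, the 78 positive and the 4955 other complete clones, with forward (fwd) arrays 1 to 3 left of reversed (rev) arrays 4 and 5 in each inbred. Boxes span the quartiles with the median as a line and whiskers run from the 5th to the 95th percentile; negative clones lie closest to 0 on the reversed H99 arrays and positive clones on forward H99 array 3.

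Averaged within an orientation, the negative clones had a median of -0.46 on the forward and -0.42 on the reversed B73 arrays. Their median on the H99 arrays was -0.28 on the forward and -0.14 on the reversed. The positive clones had medians of 0.28 on the forward and 0.16 on the reversed B73 arrays, and of 0.17 on the forward and 0.24 on the reversed H99 arrays. The rule was met on the forward arrays alone by 171 negative and 44 positive clones. It was met on the reversed arrays alone by 74 negative and 39 positive clones. Only 55 negative and 12 positive clones met it in each orientation separately.

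Among the negative clones 33 carried a gene name, for 26 genes, and among the positive clones 19 did, for 9 genes. The other 174 and 59 had none in the platform's annotation, in which 811 of the 5400 clones were named. The 32 genes together had 302 complete clones, of which 52 met the rule. None of the 26 genes with more than 1 complete clone had every one of its clones in the set. The genes tua3, tua4 and kn1 had clones of both signs. The named values are therefore those of single EST probes, and probes of the tubulin and heat shock families may also bind transcripts of related genes.

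Tubulins and actins formed the largest named group, with 4 negative and 13 positive clones of 117 complete ones. The positive ones made up 11.1% of the group, beside 1.49% of all complete clones, and all 13 were alpha-tubulins, the proteins that pair with beta-tubulin to build microtubules. They came from 103 complete clones of tua3, tua4 and TUA1, and 3 other clones of tua3 and tua4 were negative. The median over the 117 clones was 0.027 for L1 and 0.12 for L2, beside -0.015 and -0.002 over all complete clones. This list and the other gene groups were drawn up with values of these data known. Over all 5240 complete clones 3.95% were negative and 1.49% positive, and the groups below are given beside these shares; most hold 1 to 3 members, so that their shares rest on single clones.

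Of the 57 complete tua4 clones, 8 were positive and 1 was negative. The clone at spots 7405 to 7407 read 0.37, 0.33 and 0.47 on the forward and 0.24 and 0.11 on the reversed B73 arrays, and 0.30, 0.22 and 0.071 on the forward and 0.31 and 0.20 on the reversed H99 arrays. It was above 0 on every array, lowest on forward H99 array 3, and L1 was 0.31 ± 0.14 and L2 0.22 ± 0.096 (SD, n = 5 each). The clone at spots 11773 to 11775 read 0.24, 0.29 and 0.51 on the forward and 0.62 and 0.34 on the reversed B73 arrays, and 0.19, 0.001 and -0.33 on the forward and 0.46 and 0.63 on the reversed H99 arrays. On the H99 arrays its orientations did not overlap, with both reversed values above all forward ones. Its forward minus reversed difference there was -0.59 ± 0.14 (SE; limma adjusted p = 0.0255). At spots 15763 to 15765 the values were 0.30, 0.16 and 0.37 on the forward and 0.25 and 0.026 on the reversed B73 arrays, and 0.33, 0.09 and -0.32 on the forward and 0.37 and 0.42 on the reversed H99 arrays, the same arrangement with a difference whose limma adjusted p was 0.171. At spots 3928 to 3930 they were 0.22, 0.22 and 0.28 on the forward and 0.26 and 0.063 on the reversed B73 arrays, and 0.35, 0.16 and -0.01 on the forward and 0.28 and 0.23 on the reversed H99 arrays. Reversed B73 array 5 and forward H99 array 3 were the low ones. The clone at spots 5254 to 5256 read 0.38, 0.19 and 0.30 on the forward and 0.21 and -0.16 on the reversed B73 arrays, and 0.35, 0.22 and 0.056 on the forward and 0.25 and 0.042 on the reversed H99 arrays. It was the only tua4 clone of this set below 0 on a B73 array. Spots 6916 to 6918 gave 0.23, 0.20 and 0.39 on the forward and 0.25 and 0.068 on the reversed B73 arrays, and 0.33, 0.16 and 0.015 on the forward and 0.30 and 0.10 on the reversed H99 arrays. Spots 11665 to 11667 gave 0.28, 0.37 and 0.21 on the forward and 0.13 and 0.056 on the reversed B73 arrays, and 0.25, 0.23 and 0.11 on the forward and 0.19 and 0.22 on the reversed H99 arrays. Both were above 0 on all 10 arrays. The last, spots 11437 to 11439, gave 0.30, 0.27 and 0.50 on the forward and 0.012 and 0.062 on the reversed B73 arrays, and 0.17, 0.17 and 0.009 on the forward and 0.17 and 0.30 on the reversed H99 arrays, with its forward B73 values above both reversed ones, with a difference of 0.32 ± 0.11 (SE; limma adjusted p = 0.0492).

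The remaining 48 complete tua4 clones had a median L1 of -0.041 and a median L2 of 0.12. Of all 57, 29 had both means above 0, 3 had both below 0 and 25 had means of opposite sign. Among the 48, L1 reached 0.41 and L2 0.27, whereas the 8 positive clones ended at 0.40 and 0.22. The 8 were therefore not the highest of the gene on either inbred but those past 0.15 on both. L2 was above 0 in 53 of the 57 clones and L1 in 30. The single negative tua4 clone, at spots 4207 to 4209, read -1.03, -0.77 and -0.081 on the forward and -0.19 and -0.47 on the reversed B73 arrays, and -0.59, -0.48 and -0.70 on the forward and 0.05 and 0.028 on the reversed H99 arrays. It was far below 0 on the forward H99 arrays and slightly above 0 on both reversed ones.

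Gene tua3 had 3 positive and 2 negative clones of 16 complete ones. The positive clone at spots 2281 to 2283 read 0.42, 0.13 and 0.30 on the forward and 0.43 and 0.018 on the reversed B73 arrays, and 0.19, 0.059 and 0.046 on the forward and 0.36 and 0.36 on the reversed H99 arrays. That at spots 7591 to 7593 read 0.18, 0.31 and 0.15 on the forward and 0.22 and 0.10 on the reversed B73 arrays, and 0.26, 0.31 and -0.06 on the forward and 0.41 and 0.17 on the reversed H99 arrays. Both were lowest on forward H99 array 3 within that inbred. The third, at spots 11647 to 11649, read 0.17, 0.40 and 0.038 on the forward and 0.055 and 0.15 on the reversed B73 arrays, and 0.45, 0.22 and -0.084 on the forward and 0.20 and 0.10 on the reversed H99 arrays. Its value on that same array was below 0, as was that of spots 7591 to 7593. The negative tua3 clone at spots 12064 to 12066 read -1.28, -1.26 and -1.01 on the forward and -0.44 and -0.71 on the reversed B73 arrays, and -0.69, -0.41 and -0.42 on the forward and 0.27 and -0.096 on the reversed H99 arrays. Its forward values lay below its reversed values without overlap in each inbred, with a difference of -0.60 ± 0.13 on the B73 arrays (SE; limma adjusted p = 0.0114) and -0.59 ± 0.13 on the H99 arrays (adjusted p = 0.0222). The negative clone at spots 9841 to 9843 read -0.85, -0.50 and -0.001 on the forward and -0.38 and -1.10 on the reversed B73 arrays, and -0.18, -0.35 and -0.56 on the forward and 0.071 and -0.17 on the reversed H99 arrays, and its B73 values spanned more than 1 log2 unit. The 11 other tua3 clones had a median L1 of -0.087 and a median L2 of 0.11.

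The 2 positive clones of TUA1 came from 30 complete ones. Spots 7618 to 7620 read 0.37, 0.23 and 0.26 on the forward and 0.53 and 0.28 on the reversed B73 arrays, and 0.28, 0.21 and -0.004 on the forward and 0.41 and 0.21 on the reversed H99 arrays, and L1 was 0.33 ± 0.12 and L2 0.22 ± 0.15 (SD, n = 5 each). These values were above 0 on 9 arrays and at -0.004 on forward H99 array 3. Spots 13663 to 13665 read 0.28, 0.087 and 0.40 on the forward and 0.38 and 0.073 on the reversed B73 arrays, and 0.18, 0.21 and -0.22 on the forward and 0.41 and 0.50 on the reversed H99 arrays, with the lowest value again on that array. The 28 other clones of TUA1 had a median L1 of -0.011 and a median L2 of 0.13. A beta-tubulin, tub3, had 1 clone, which was negative and read -0.39, -0.42 and -0.41 on the forward and -0.16 and 0.049 on the reversed B73 arrays, and -0.54, -0.24 and -0.24 on the forward and -0.11 and -0.14 on the reversed H99 arrays. It was below 0 on 9 arrays, and its forward B73 values lay below both reversed ones, with a difference of -0.35 ± 0.11 (SE; limma adjusted p = 0.0438).

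Chaperones and heat shock proteins gave 5 negative and 1 positive clone of 49 complete ones, or 10.2% and 2.04%, beside 3.95% and 1.49% of all complete clones. All 5 negative clones were hsp70-5, a member of the HSP70 family that binds unfolded proteins, and they came from 22 complete clones of that gene. The clone at spots 8278 to 8280 was the most negative of them and read -1.36, -1.64 and -0.55 on the forward and -0.58 and -1.11 on the reversed B73 arrays, and -0.72, -0.59 and -0.40 on the forward and 0.15 and -0.33 on the reversed H99 arrays. It was below 0 on 9 arrays, and L1 was -1.05 ± 0.48 and L2 -0.38 ± 0.33 (SD, n = 5 each). Spots 15931 to 15933 read -0.91, -0.98 and -0.61 on the forward and -0.49 and -0.76 on the reversed B73 arrays, and -0.27, -0.24 and -0.44 on the forward and 0.21 and -0.15 on the reversed H99 arrays. In both clones the B73 mean was much lower than the H99 mean. Spots 2245 to 2247 gave -0.25, -0.60 and -0.26 on the forward and -0.19 and -0.10 on the reversed B73 arrays, and -0.34, -0.40 and -0.24 on the forward and 0.26 and -0.081 on the reversed H99 arrays. Spots 12250 to 12252 gave -0.62, -0.40 and -0.18 on the forward and -0.22 and -0.11 on the reversed B73 arrays, and -0.27, -0.26 and -0.24 on the forward and 0.03 and -0.079 on the reversed H99 arrays. Spots 12940 to 12942 gave -0.36, -0.20 and -0.098 on the forward and -0.25 and -0.038 on the reversed B73 arrays, and -0.50, -0.24 and -0.12 on the forward and 0.045 and -0.083 on the reversed H99 arrays. All 5 hsp70-5 clones were above 0 on reversed H99 array 4 and below 0 on each of the other 9 arrays. The 17 other hsp70-5 clones had a median L1 of 0.038, within -0.293 to 0.325, and a median L2 of -0.055, within -0.153 to 0.149.

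The positive clone of the group was hsp18a, a small heat shock protein, one of a class that holds unfolding proteins in solution. It read 0.26, 0.26 and 0.29 on the forward and 0.027 and -0.058 on the reversed B73 arrays, and 0.15, 0.16 and -0.046 on the forward and 0.30 and 0.22 on the reversed H99 arrays. On the B73 arrays the forward values lay above both reversed ones, with a limma adjusted p of 0.0595 for the difference, and on the H99 arrays the reversed values were the higher. The other hsp18a clone had an L1 of -0.204 and an L2 of 0.085.

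Methionine and S-adenosylmethionine synthesis, which supplies the cell's methyl groups, gave 3 negative clones and no positive one of 54 complete clones. The negative share of 5.56% was near the 3.95% of all clones. Of 31 complete clones of sam2, an S-adenosylmethionine synthetase, 2 were negative. Spots 14512 to 14514 read -1.16, -0.65 and -0.80 on the forward and -0.97 and -1.34 on the reversed B73 arrays, and -0.52, -0.15 and -0.50 on the forward and -0.058 and -0.16 on the reversed H99 arrays, and L1 was -0.98 ± 0.28 and L2 -0.28 ± 0.22 (SD, n = 5 each). Every array was below 0, and the B73 arrays were lower than the H99 arrays without overlap. Spots 4843 to 4845 read -0.74, -1.01 and -0.65 on the forward and -0.49 and -0.95 on the reversed B73 arrays, and -0.16, -0.19 and -0.25 on the forward and 0.013 and -0.45 on the reversed H99 arrays, with 1 H99 value just above 0. The clone of csu503(met), a gene of methionine synthesis, read -0.33, -0.27 and -0.43 on the forward and -0.50 and -0.90 on the reversed B73 arrays, and 0.10, -0.24 and -0.70 on the forward and -0.061 and -0.27 on the reversed H99 arrays. Its H99 values ran from 0.10 to -0.70. The 29 other sam2 clones had a median L1 of -0.032, and the 20 other clones of csu503(met) one of -0.003.

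Enzymes outside these groups that use such methyl groups or make small metabolites were also present. PEAMT, the phosphoethanolamine N-methyltransferase of choline synthesis, read -0.68, -0.85 and -0.74 on the forward and -0.54 and -0.65 on the reversed B73 arrays, and -0.25, -0.29 and -0.29 on the forward and 0.041 and -0.27 on the reversed H99 arrays. Its B73 values were tight, and L1 was -0.69 ± 0.11 and L2 -0.21 ± 0.14 (SD, n = 5 each). The 4 other PEAMT clones had a median L1 of 0.096 and a median L2 of 0.048. INO1, which makes myo-inositol phosphate, had 2 negative clones of 19. The first, spots 2206 to 2208, read -0.92, -0.84 and -0.85 on the forward and -0.078 and -0.82 on the reversed B73 arrays, and -0.33, -0.44 and -0.25 on the forward and 0.029 and -0.22 on the reversed H99 arrays, with reversed B73 array 4 far above the other 4 arrays of that inbred. The second, spots 13453 to 13455, read -0.65, -0.57 and -0.29 on the forward and -0.26 and -0.40 on the reversed B73 arrays, and -0.13, -0.17 and -0.20 on the forward and -0.098 and -0.18 on the reversed H99 arrays, below 0 on every array. In the 17 other INO1 clones the median L1 was 0.11 and the median L2 was -0.012.

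Carbon metabolism was represented by single negative clones. The gene adh1 encodes alcohol dehydrogenase, which acts in fermentation, and its clone read -0.31, -0.29 and -0.45 on the forward and -0.15 and 0.095 on the reversed B73 arrays, and -0.54, -0.18 and -0.12 on the forward and -0.33 and -0.24 on the reversed H99 arrays. Its reversed H99 mean of -0.29 was the lowest of the named negative clones. The clone of sh1, a sucrose synthase, read -0.098, -0.26 and -0.20 on the forward and -0.29 and -0.005 on the reversed B73 arrays, and -0.25, -0.066 and -0.20 on the forward and -0.17 and -0.095 on the reversed H99 arrays. All 10 of its values were below 0, and the lowest was -0.29. The 3 other adh1 clones had a median L1 of 0.025 and a median L2 of -0.123, and the 4 other sh1 clones 0.077 and 0.009. The only clone of gpt, the translocator that carries glucose 6-phosphate into plastids, read -0.56, -0.66 and -0.22 on the forward and -0.87 and -0.98 on the reversed B73 arrays, and -0.12, -0.37 and -0.57 on the forward and 0.029 and -0.43 on the reversed H99 arrays. Its B73 values were lower on the reversed than on the forward arrays. The glycolysis and fermentation group gave 1 negative clone, adh1, of 33 complete ones, or 3.03%, and sucrose metabolism gave 1, sh1, of 16, or 6.25%, beside 3.95% of all clones.

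In the group of inflorescence regulators, 2 clones were negative and 1 was positive of 41 complete ones, or 4.88% and 2.44%, close to the shares over all clones. The homeobox gene kn1, which maintains the shoot and inflorescence meristems, had 1 clone of each sign among 11. Its positive clone, spots 11272 to 11274, read 0.13, 0.29 and 0.18 on the forward and 0.35 and 0.21 on the reversed B73 arrays, and 0.24, 0.15 and 0.18 on the forward and 0.26 and 0.22 on the reversed H99 arrays. All 10 values were above 0 and within a narrow range, and L1 was 0.24 ± 0.089 and L2 0.21 ± 0.045 (SD, n = 5 each). Its negative clone, spots 12295 to 12297, read -0.64, -0.45 and -0.52 on the forward and -0.18 and 0.084 on the reversed B73 arrays, and -0.50, -0.21 and -0.13 on the forward and -0.14 and 0.008 on the reversed H99 arrays. There the forward B73 values lay below both reversed ones, with a difference of -0.49 ± 0.12 (SE; limma adjusted p = 0.019), and 2 arrays were above 0. The 9 other kn1 clones had a median L1 of -0.038 and a median L2 of 0.041. The gene rld1, which encodes an HD-ZIP III protein of leaf polarity, had a negative clone that read -0.26, -0.27 and -0.32 on the forward and -0.075 and -0.0 on the reversed B73 arrays, and -0.26, -0.049 and -0.061 on the forward and -0.19 and -0.21 on the reversed H99 arrays. Its values were small throughout, and none of the other 3 rld1 clones met the rule. Those 3 had a median L1 of 0.153 and a median L2 of -0.011.

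Translation contributed 1 negative and 2 positive clones of 84, or 1.19% and 2.38%, beside 3.95% and 1.49% of all clones. RP-P0, an acidic protein of the large ribosomal subunit, was negative and read -0.91, -0.78 and -0.69 on the forward and -0.45 and -0.39 on the reversed B73 arrays, and -0.61, -0.32 and -0.48 on the forward and 0.013 and -0.014 on the reversed H99 arrays. The reversed H99 values were near 0, and the forward minus reversed difference was -0.38 ± 0.11 on the B73 arrays (SE; limma adjusted p = 0.0312) and -0.47 ± 0.11 on the H99 arrays (adjusted p = 0.0227). In the 6 other RP-P0 clones the median L1 was 0.06 and the median L2 was 0.088. The clone of rpp3, another acidic ribosomal protein, was positive and read 0.39, 0.16 and 0.65 on the forward and 0.66 and -0.046 on the reversed B73 arrays, and 0.37, 0.013 and 0.001 on the forward and 0.11 and 0.28 on the reversed H99 arrays. Its values ranged widely in each inbred. The clone of tif1, a translation initiation factor, read 0.44, 0.64 and 0.49 on the forward and 0.004 and 0.11 on the reversed B73 arrays, and 0.44, 0.38 and 0.039 on the forward and 0.004 and 0.16 on the reversed H99 arrays. It was high on 5 of 6 forward arrays and low on the reversed ones, with a difference of 0.47 ± 0.12 on the B73 arrays (SE; limma adjusted p = 0.021).

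Calcium signalling gave 1 clone of each sign of 20, or 5.0% each, beside 3.95% and 1.49% of all clones. The clone of CaM1, a calmodulin, was positive and read 0.39, 0.54 and 0.47 on the forward and 0.36 and 0.097 on the reversed B73 arrays, and 0.24, 0.17 and 0.12 on the forward and -0.008 and 0.26 on the reversed H99 arrays. The clone of CDPK, a calcium-dependent protein kinase, was negative and read -0.34, -0.49 and -0.70 on the forward and 0.01 and 0.053 on the reversed B73 arrays, and -0.36, -0.16 and -0.17 on the forward and -0.14 and -0.20 on the reversed H99 arrays. Its forward B73 values were far below 0 while both reversed ones were slightly above, a difference of -0.54 ± 0.11 (SE; limma adjusted p = 0.00943). The only aquaporin was PIP2-1, which lets water through the plasma membrane, 1 of 17 clones of its group (5.88%), which read -0.75, -0.33 and -0.47 on the forward and -0.58 and -0.60 on the reversed B73 arrays, and 0.25, -0.39 and -0.62 on the forward and 0.089 and -0.19 on the reversed H99 arrays. It was below 0 on all B73 arrays and on either side of 0 in both orientations of H99. The 8 other CaM1 clones had a median L1 of 0.065 and a median L2 of -0.038. These medians were 0.079 and -0.067 in the 5 other CDPK clones, and -0.171 and 0.005 in the 5 other PIP2-1 clones.

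Other nuclear proteins had 3 negative clones. The clone of his1, a linker histone H1, was the only one of 111 clones of chromatin proteins (0.901%, beside 3.95% of all clones) and read -0.51, -0.29 and -0.49 on the forward and -0.059 and -0.17 on the reversed B73 arrays, and -0.31, -0.24 and -0.15 on the forward and -0.029 and -0.087 on the reversed H99 arrays. All its values were below 0, and the forward B73 values were lower than both reversed ones with a limma adjusted p of 0.0496. The clone of pcna2, the sliding clamp of DNA replication, read -0.39, -0.44 and -0.39 on the forward and -0.05 and 0.072 on the reversed B73 arrays, and -0.48, -0.41 and -0.088 on the forward and 0.17 and 0.023 on the reversed H99 arrays. It was negative on the forward arrays and near or above 0 on the reversed ones, with a difference of -0.42 ± 0.12 on the B73 arrays (SE; limma adjusted p = 0.0274) and -0.42 ± 0.12 on the H99 arrays (adjusted p = 0.049). DrAp1, a transcriptional repressor associated with Dr1, read -0.29, -0.36 and -0.47 on the forward and -0.008 and -0.01 on the reversed B73 arrays, and -0.37, -0.15 and 0.092 on the forward and -0.16 and -0.18 on the reversed H99 arrays. Its reversed B73 values were near 0, with a limma adjusted p of 0.0491 for the difference of -0.36 ± 0.12 (SE). The 8 other his1 clones had a median L1 of 0.032 and a median L2 of -0.025. The other pcna2 clone had an L1 of 0.317 and an L2 of -0.017, and the other DrAp1 clone -0.28 and -0.092.

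The clone of cys2, a cysteine protease, had the largest L2 of the named negative clones and read -0.11, -1.06 and -0.94 on the forward and -0.53 and -0.98 on the reversed B73 arrays, and -1.10, -0.81 and -0.91 on the forward and 0.014 and -0.004 on the reversed H99 arrays. The H99 value came from the forward arrays alone, where all 3 were at -0.81 or below while both reversed ones were near 0. That difference was -0.95 ± 0.20 (SE; limma adjusted p = 0.019). LOC606466, for which no role is given here, read -0.73, -0.59 and -0.072 on the forward and -0.72 and -0.65 on the reversed B73 arrays, and -0.49, -0.70 and -0.88 on the forward and -0.019 and -0.096 on the reversed H99 arrays. It had the same arrangement on the H99 arrays, with a difference of -0.63 ± 0.15 (SE; limma adjusted p = 0.0311). LOC542185, also without a stated role, read -0.50, -0.16 and -0.001 on the forward and -0.66 and -0.68 on the reversed B73 arrays, and -0.22, -0.039 and -0.62 on the forward and -0.34 and -0.14 on the reversed H99 arrays. Here the reversed B73 arrays were the lower ones, with a limma adjusted p of 0.0599. The 3 other LOC542185 clones had a median L1 of -0.142 and a median L2 of -0.024. The 2 other cys2 clones had both means above 0, with L1 of 0.119 and 0.253 and L2 of 0.007 and 0.108.

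The 14-3-3 gene grf1, whose protein binds phosphorylated partners, read -0.49, -0.57 and -0.62 on the forward and -0.14 and 0.083 on the reversed B73 arrays, and -0.52, -0.14 and -0.0 on the forward and -0.10 and -0.052 on the reversed H99 arrays. GRF2, given without a role, read -0.48, -0.36 and -0.55 on the forward and -0.13 and 0.031 on the reversed B73 arrays, and -0.52, -0.17 and -0.016 on the forward and -0.22 and -0.08 on the reversed H99 arrays. The 2 clones had almost the same profile over the 10 arrays, and their spots follow each other directly. In both the forward B73 values lay below the reversed ones, with a difference of -0.53 ± 0.13 for grf1 (SE; limma adjusted p = 0.0165) and -0.41 ± 0.13 for GRF2 (adjusted p = 0.0415). AR1 read -0.39, -0.36 and -0.53 on the forward and -0.28 and -0.22 on the reversed B73 arrays, and -0.086, -0.10 and -0.56 on the forward and -0.075 and -0.15 on the reversed H99 arrays, and pk8-a read -0.20, -0.21 and -0.42 on the forward and -0.22 and 0.002 on the reversed B73 arrays, and -0.086, -0.11 and -0.31 on the forward and -0.20 and -0.15 on the reversed H99 arrays. AR1 was below 0 on every array, with forward H99 array 3 by far the lowest of its inbred. The 4 other grf1 clones had a median L1 of 0.098 and a median L2 of 0.019. L1 and L2 were -0.084 and 0.068 in the other GRF2 clone, and -0.182 and -0.07 in the other pk8-a clone. Outside the gene groups, ANT1, an adenine nucleotide translocator of mitochondria, was the only named positive clone, and it read 0.35, 0.38 and 0.57 on the forward and 0.33 and 0.16 on the reversed B73 arrays, and 0.29, 0.14 and 0.0 on the forward and 0.028 and 0.40 on the reversed H99 arrays. It was one of 12 clones of that gene, and the 11 others had a median L1 of -0.007.

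Markers of other tissues were too few to read. None of the 2 named clones of anther markers and not the 1 clone of a leaf marker met the rule, and no named clone stood for kernel storage proteins. None of 7 clones of signalling GTPases and kinases met it either. At shares of 3.95% and 1.49% over all clones, no member among so few clones says nothing about these groups.

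**Figure D3:**
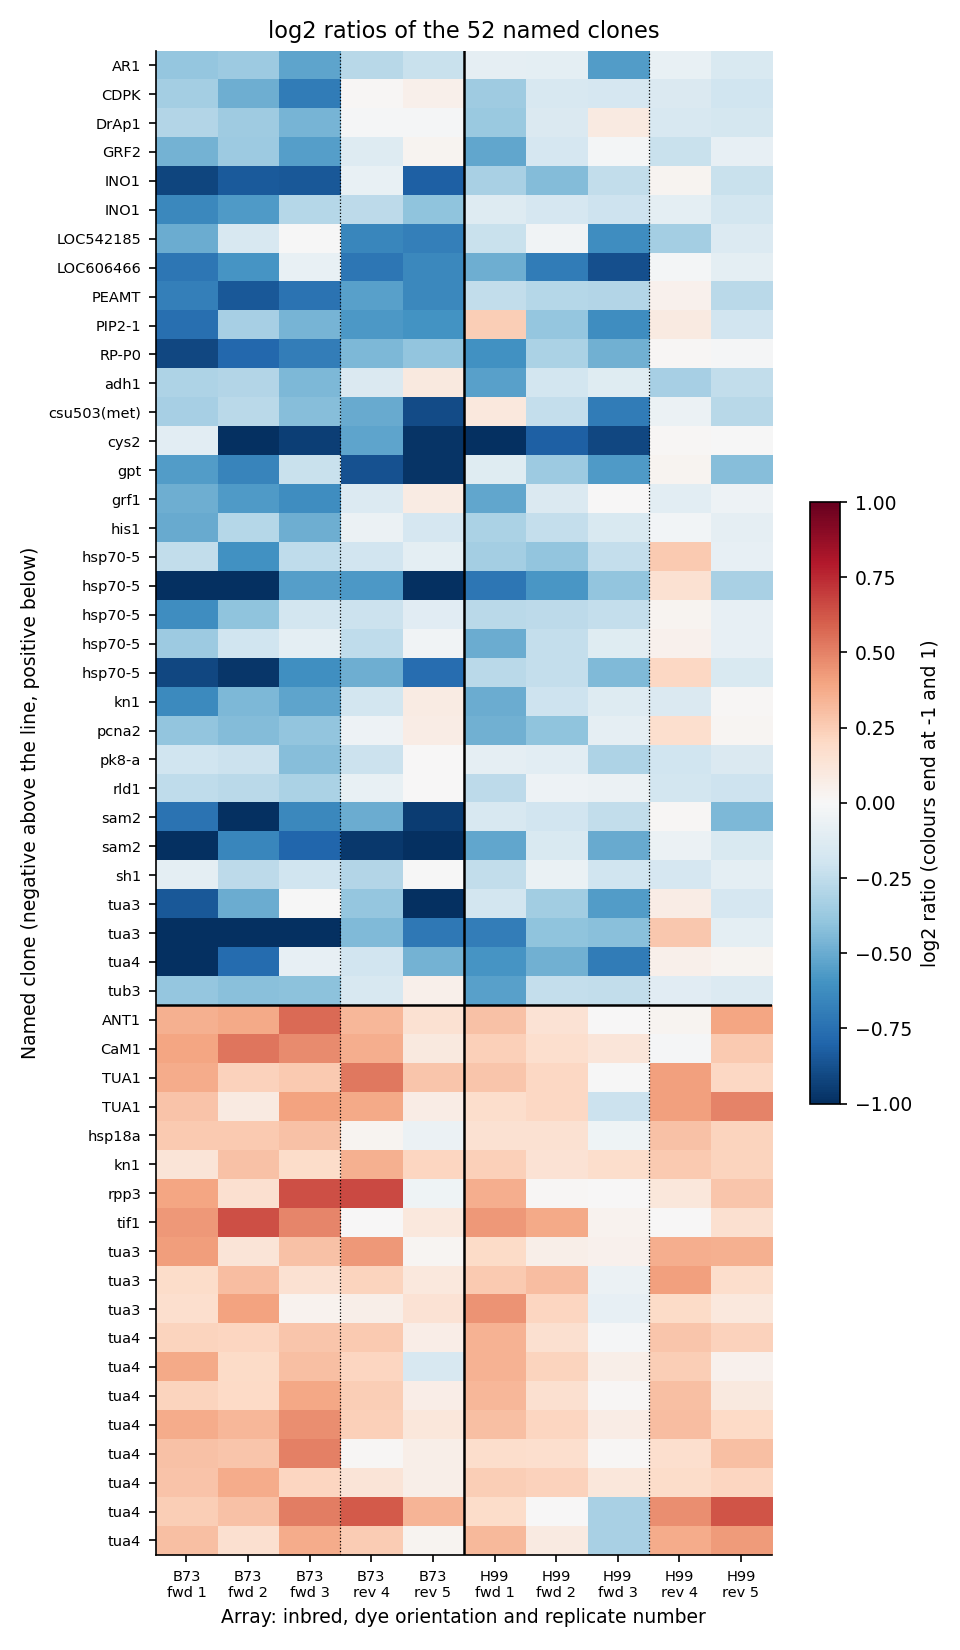
log2 ratios of the 52 named clones (rows; 33 negative above the line, 19 positive below) on the 10 arrays (columns), with forward (fwd) arrays left of reversed (rev) ones in each inbred. Blue marks values below 0 and red values above 0, and colours end at -1 and 1; the reversed H99 columns are pale in most negative clones, and forward H99 array 3 is pale or blue in most positive clones.

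The most extreme clones of each sign had no gene name. Spots 1147 to 1149 had the largest smaller mean of the negative clones and read -1.08, -0.66 and -0.32 on the forward and -0.39 and -0.98 on the reversed B73 arrays, and -1.12, -0.77 and -1.16 on the forward and -0.024 and 0.031 on the reversed H99 arrays. The second, spots 8782 to 8784, read -1.17, -0.99 and -0.96 on the forward and -0.56 and -0.97 on the reversed B73 arrays, and -0.996, -0.45 and -1.05 on the forward and -0.22 and -0.15 on the reversed H99 arrays. In both the H99 mean came mainly from the forward arrays. The most extreme positive clones were spots 9013 to 9015, which read 0.37, 0.32 and 0.52 on the forward and 0.15 and 0.19 on the reversed B73 arrays, and 0.13, 0.051 and 0.065 on the forward and 0.41 and 0.70 on the reversed H99 arrays, and spots 11293 to 11295, which read 0.32, 0.38 and 0.57 on the forward and 0.45 and 0.07 on the reversed B73 arrays, and 0.28, -0.043 and -0.33 on the forward and 0.60 and 0.75 on the reversed H99 arrays. In these the H99 mean came from the reversed arrays. Their forward minus reversed difference on the H99 arrays was -1.02 ± 0.19 (SE; limma adjusted p = 0.00836) and -0.65 ± 0.16 (adjusted p = 0.0302) in the negative clones. In the positive clones it was -0.47 ± 0.11 (SE; limma adjusted p = 0.0222) and -0.71 ± 0.15 (adjusted p = 0.019).

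The difference between orientations was not itself used to choose the clones. At equal error of the arrays, and where a clone has no true difference between orientations, it is uncorrelated with the 5-array mean. It was tested in limma over all 5240 clones. The SD over all spots was 0.302 to 0.362 on the forward and 0.218 to 0.249 on the reversed B73 arrays. On the H99 arrays it was 0.181 to 0.228 on the forward and 0.172 on the reversed ones, so that equal error is an assumption. Were the forward arrays noisier, choosing on the mean would favour extreme forward values. The shares below would then partly reflect the choice, which was not tested. On the B73 arrays the difference between orientations passed an adjusted p of 0.05 in 51 negative clones, or 24.6%, beside 15.4% of all clones. Of these, 40 were lower on the forward and 11 lower on the reversed arrays, and the median difference over the negative clones was -0.15. On the H99 arrays 21 negative clones passed, or 10.1%, beside 4.26% of all clones, with 19 of them lower on the forward arrays and a median difference of -0.16. In the mean of both inbreds 52 passed, beside 9.85% of all clones. At the deposited spread the negative clones thus read lower on the forward arrays in both inbreds, and the forward arrays also spread more widely over all clones. With all arrays scaled to one spread, 30 negative clones passed on the H99 arrays, or 14.5%, beside 15.1% of all clones, so that their share no longer stood above that of all clones there. On the B73 arrays 10 passed under this scaling, or 4.83%, beside 1.09%, and in the mean of both inbreds 21, or 10.1%, beside 13.0%. After quantile normalization 53 negative clones passed on the H99 arrays, or 25.6%, beside 17.0% of all clones, and 7 on the B73 arrays, or 3.38%, beside 1.15%.

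In the positive clones the median differences of the 2 inbreds had opposite signs. On the B73 arrays 13 of 78 passed, or 16.7%, beside 15.4% of all clones, which is close to the background. Of these 13, 11 were higher on the forward arrays, and the median difference over the positive clones was 0.12. On the H99 arrays 9 passed, or 11.5%, beside 4.26% of all clones. Of these 9, 7 were higher on the reversed arrays, and the median difference was -0.071. The difference between the inbreds, H99 minus B73, passed in 3 positive and 10 negative clones, or 3.85% and 4.83%, beside 3.78% of all clones. Among the 33 named negative clones, 10 passed on the B73 arrays and 5 on the H99 arrays, all lower on the forward arrays. Among the 19 named positive clones, 2 and 1 passed, and the shares over all clones were again 15.4% and 4.26%. With all arrays scaled to one spread, 3 positive clones passed on the B73 arrays, or 3.85%, beside 1.09% of all clones, and 23 on the H99 arrays, or 29.5%, beside 15.1%. After quantile normalization 3 passed on the B73 arrays, or 3.85%, beside 1.15%, and 20 on the H99 arrays, or 25.6%, beside 17.0%.

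The counts also rested on single arrays, and the shares over all clones moved with them. On the B73 arrays 14 negative clones passed without B73 array 4, or 6.76%, beside 2.31% of all clones. Without B73 array 5 there were 11, or 5.31%, beside 4.12%, which is close to the background, and without B73 array 3 there were 29, or 14%, beside 6.24%. Among positive clones the B73 count was 5 without array 4, or 6.41%, 4 without array 5, or 5.13%, and 7 without array 3, or 8.97%, beside the same shares of all clones. On the H99 arrays limma passed 0 negative clones without H99 array 4 or 5, with 36 or 49 at an unadjusted p under 0.05, and over all clones it passed 13 and 0. Without H99 array 2 or 3 it passed 12 in each case, or 5.80%, beside 1.41% and 1.83% of all clones. The positive count on the H99 arrays was 1 without array 2, or 1.28%, 3 without array 3, or 3.85%, 1 without array 4 and 0 without array 5, with 17 at an unadjusted p under 0.05 in limma. In the mean of both inbreds the negative count was 24 without B73 array 4, or 11.6%, beside 4.01% of all clones. It was 11 without H99 array 4, or 5.31%, beside 2.21%, and 19 without H99 array 5, or 9.18%, beside 3.61%. The positive count was 9, 7 and 7 without these arrays, or 11.5%, 8.97% and 8.97%. The difference between the inbreds passed in 0 to 30 negative and 0 to 12 positive clones when single arrays were left out, while 0 to 621 of all clones passed.

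A reading that kept choice and measurement apart was had by applying the rule to the 6 forward arrays alone and reading the chosen clones on the 4 reversed arrays. This chose 280 negative and 151 positive clones, of which 171 and 44 were also in the sets above. The negative choice kept its sign on the reversed B73 arrays in 244 clones, or 87.1%, beside 51.2% of all clones below 0 there, with a median of -0.43 on the forward and -0.20 on the reversed arrays. On the reversed H99 arrays 214 clones, or 76.4%, were below 0, beside 51.2% of all clones, with a median of -0.24 on the forward and -0.071 on the reversed arrays. The rule was met again by 55 of them, or 19.6%, beside 4.01% of all clones. A dye bias on arrays that had not been turned before deposit would give the same sign too, and this was not tested.

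The limma fit to the 4 reversed arrays separated the inbreds. Among the 280 clones of the negative choice, L1 passed an adjusted p of 0.05 with a negative sign in 126, or 45%, beside 6.45% of all clones. L2 did so in 7, or 2.5%, beside 2.02%, which is close to the background. The average d passed in 135, or 48.2%, beside 8.44%, and d contains L1. Leaving out reversed H99 array 4 or 5 changed the L2 count to 2 or 0 (15 at an unadjusted p under 0.05 in limma for the 0), beside 0.210% and 0.324% of all clones. Leaving out reversed B73 array 4 or 5 changed it to 23, or 8.21%, beside 4.20%. The opposite split, with 210 negative clones chosen on the reversed and read on the forward arrays, gave another picture for H99. L2 then passed in 31, or 14.8%, beside 5.84% of all clones, although the sign was kept on the H99 arrays in 59.0%, beside 49.2%. L1 passed in 92, or 43.8%, beside 27.1%, with the sign kept on the B73 arrays in 73.3%, beside 50.8%, and d in 84, or 40%, beside 18.5%. L1 thus passed more often than over all clones in both splits, whereas the L2 share was near the background in one and above it in the other. Named clones of the negative choice that passed for L1 numbered 18 of 49. They were AR1, both INO1, LOC542185, LOC606466, PEAMT, PIP2-1, RP-P0 at spots 12316 to 12318, csu503(met), cys2, gpt, 2 of hsp70-5, sam2 at spots 4843 to 4845 and 14512 to 14514, both tua3 and tua4. The sam2 clone at spots 8416 to 8418 and the RP-P0 clone at spots 12562 to 12564 were chosen but did not pass. Only 2 passed for L2, both of adh1, at -0.49 (adjusted p = 0.00123) for spots 5620 to 5622, which were not in the set above, and at -0.29 (limma adjusted p = 0.0448) for spots 12652 to 12654.

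The positive choice was read in the same way. Of 151 clones, 95, or 62.9%, were above 0 on the reversed B73 arrays and 89, or 58.9%, on the reversed H99 arrays, beside 48.8% of all clones on each. The B73 median was 0.25 on the forward and 0.031 on the reversed arrays, and the H99 median was 0.21 on the forward and 0.038 on the reversed arrays. The rule was met again by 12, or 7.95%, beside 6.11% of all clones. In limma, L1 passed with a positive sign in 5, or 3.31%, beside 7.81% of all clones. L2 passed in 8, or 5.30%, beside 3.49%, and d in 17, or 11.3%, beside 11.1%. These shares were near or below the background. In the opposite split, with 320 positive clones chosen on the reversed arrays, L1 passed on the forward arrays in 207, or 64.7%, beside 26.4% of all clones, and L2 in 4, or 1.25%, beside 4.33%. Among the named clones TUA1 at spots 7618 to 7620 passed for both inbreds, kn1 at spots 11272 to 11274 passed for L1 and 1 clone of tua3 for L2. Without single arrays the L1 count was 1 without B73 array 4, or 0.662%, beside 2.08% of all clones, and up to 14 without B73 array 5, or 9.27%, beside 9.73%. The L2 count was 0 without H99 array 4, with 8 at an unadjusted p under 0.05 in limma and 0.630% of all clones called, and up to 17 without B73 array 4 or 5, or 11.3%, beside 5.94%. The d count was 5 without H99 array 4, or 3.31%, beside 5.80%, and up to 33 without H99 array 3, or 14.2%, beside 11.1%. Without H99 array 1 the L1, L2 and d counts were 3, 4 and 7, or 2.27%, 3.03% and 5.3%, beside 7.81%, 3.49% and 11.1% of all clones. The clones that met the rule again numbered 4 without B73 array 4, or 2.65%, beside 5.32% of all clones, 3 without H99 array 1, or 2.27%, beside 6.11%, and 23 without H99 array 3, or 9.87%, beside 6.11%, and 233 clones were chosen without H99 array 3.

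**Figure D4:**
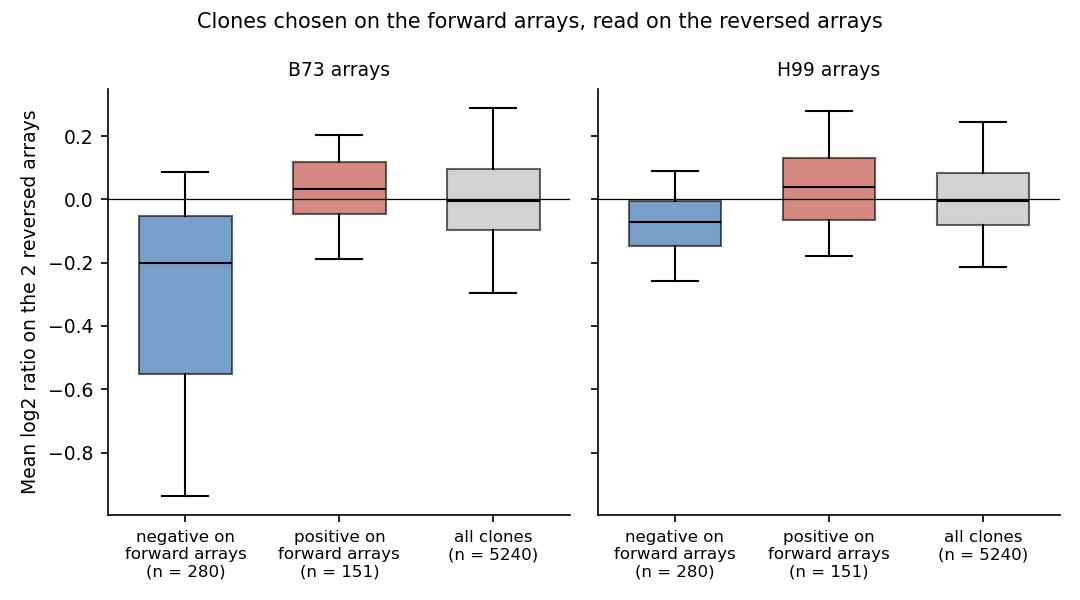
Mean log2 ratio on the 2 reversed arrays of B73 (left) and of H99 (right) for the 280 clones chosen as negative and the 151 chosen as positive on the forward arrays alone, and for all 5240 complete clones. Boxes span the quartiles with the median as a line and whiskers run from the 5th to the 95th percentile; the negative choice has a median of -0.20 for B73 and -0.071 for H99, and the positive choice lies close to all clones.

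On all 10 arrays, limma called L1 at an adjusted p of 0.05 in 191 negative clones, beside 21.0% of all clones called negative, and in 56 positive clones, beside 21.0% called positive. It called L2 in 22 negative clones, beside 0.573% of all clones, and in 4 positive clones, beside 0.782%. It called d in 205 negative clones, beside 13.0% of all clones, and in 75 positive clones, beside 12.7%. Both L1 and L2 were called in 22 negative and 3 positive clones, and the share of all clones called for both is not given here. The rule used these means, so that nothing is read from the counts. The L2 count of negative clones was 1, 2, 4 and 40 without H99 arrays 1, 2, 3 and 4, and 35 without B73 array 3. Of all clones, 0.267%, 0.363%, 0.782%, 1.45% and 1.93% were called there with either sign. The L2 count of positive clones was between 0 and 2 without B73 array 1 or 2 or without H99 array 1, 2, 4 or 5. In these settings 0.267% to 1.85% of all clones were called with either sign. It was 0 without H99 array 1 or 2, with 35 and 51 at an unadjusted p under 0.05 in limma. The L1 count of positive clones was 37, 35 and 35 without B73 arrays 1, 2 and 3. Of all clones, 27.7%, 29.4% and 26.3% were called for L1 there with either sign.

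Position in the row order, which the rule did not use, also grouped the negative clones. Each negative clone was paired with the complete clones directly before and after it in that order, which gave 406 pairs. In 80 pairs, or 19.7%, the neighbour was a negative clone too, beside 3.95% of all complete clones. A clone that lies between negative clones was counted for each of them. Over these pairs the neighbours had a median L1 of -0.12 and a median L2 of -0.068, beside -0.015 and -0.002 over all clones. A neighbour of the same kind was found for 72 of the 207 negative clones. Among the 154 such pairs of positive clones, the neighbour was a positive clone in 6, or 3.90%, beside 1.49% of all. The named clones of kn1, GRF2, grf1 and RP-P0 lie at spots 12295, 12307, 12310 and 12316, and those of DrAp1 and pcna2 at spots 10261 and 10273. The part of position in these values was not tested.

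The number of clones depended on how the reversed arrays were read. With the sign of the reversed B73 arrays turned, 115 negative and 44 positive clones met the rule, with that of the reversed H99 arrays turned 91 and 25, and with both turned 67 and 51. With both turned and the clones kept, an alternative chosen after seeing the data, 15 of the 104 means of the named clones changed sign. They were L1 of LOC542185, gpt, csu503(met) and tua3 at spots 9841 to 9843, and L2 of rld1, rpp3, hsp18a and 8 of the 13 positive alpha-tubulin clones. The forward arrays alone gave 284 and 152 clones, and the reversed arrays alone 212 and 322, over all clones with values on those arrays. On the forward arrays negative clones were thus the more frequent, and on the reversed arrays positive ones were.

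**Figure D5:**
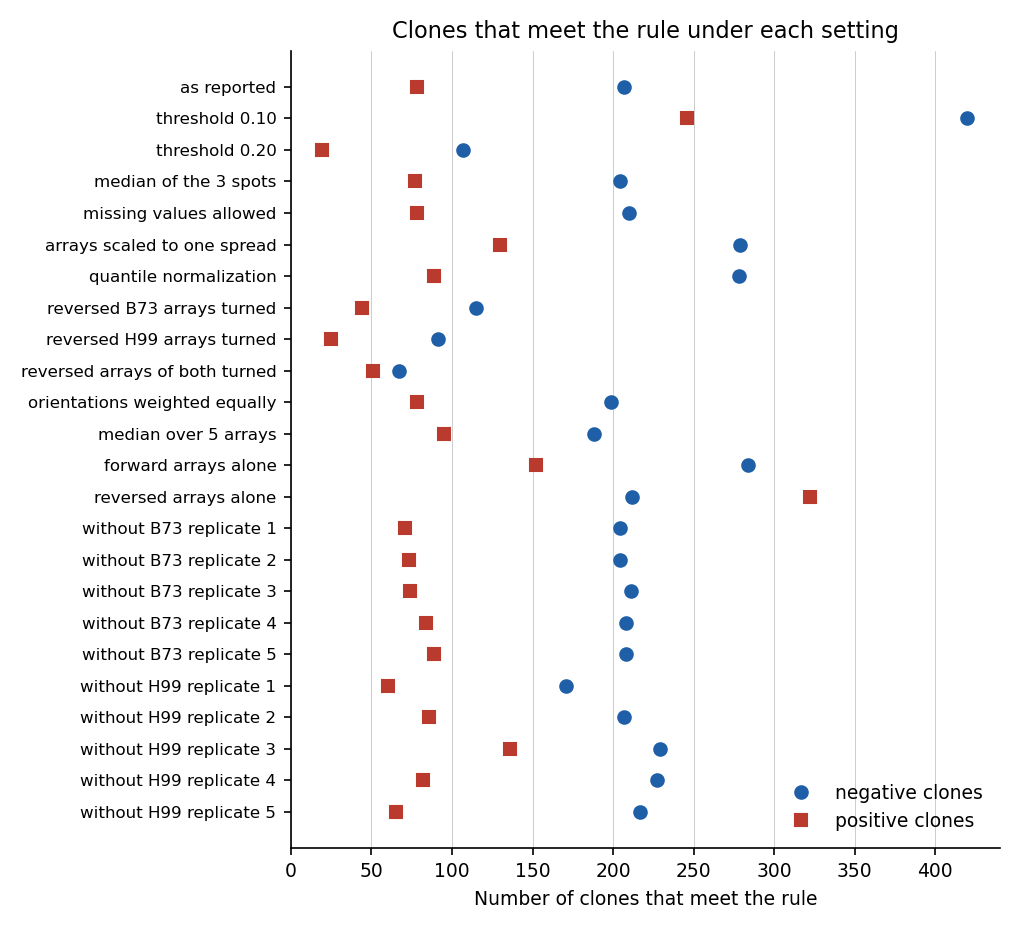
Number of negative (blue circles) and positive (red squares) clones that met the rule as reported (top row) and under each other setting applied to whole clones, including each array left out in turn. Negative clones outnumbered positive ones in every setting shown except on the reversed arrays alone, where 212 were negative and 322 positive.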

How the data were processed

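The data were log2 ratios of 10 two-colour cDNA arrays, used as the authors deposited them with 1 value per spot; the design text gives base 2. Several extractions per genotype were pooled for poly(A) RNA, which was labelled directly with Cy3 or Cy5, per the labels' protocols. How the scans were made, corrected for background, normalized and filtered is not given in the sources used. The array medians were within 0.001 of 0, and 0.253% to 2.315% of spots per array had no value.

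Each 3 successive spots were averaged to 1 clone, and missing spots stayed missing. Gene names came from the old platform annotation: 811 clones had 1 name, 0 had several and 4589 had none. RefSeq's genes of Zm-B73-REFERENCE-NAM-5.0, consulted for names, held 208 of the 213 genes. Every named clone that met the rule is given, with the 2 unnamed clones per sign of largest smaller mean. The members, gene groups and tests were chosen with earlier results of these data known.

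Contrasts over 5240 clones were fitted by limma 3.58.1 under R 4.3.3, using 1 mean for each inbred or for each inbred and orientation, with Benjamini-Hochberg adjustment at 0.05. Alternatives changed the threshold, spot summary, missing values, scaling, array signs, weights, variance and arrays used.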

Additional observations from a re-analysis of the deposited data

Results flagged for a closer look

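Of 108 groups of 5 arrays, which were the 52 named clones and the medians of both sets in each inbred, 7 had an array standing apart from the other 4 by Dixon's test; chance marks about 1 group in 20. On the H99 arrays these were AR1 at -0.555 on forward array 3, CDPK at -0.355 on forward array 1, grf1 at -0.518 on forward array 1 and PEAMT at 0.041 on reversed array 4. On the B73 arrays they were INO1 (spots 2206 to 2208) at -0.078 on reversed array 4, LOC606466 at -0.072 on forward array 3 and tua4 (spots 3928 to 3930) at 0.063 on reversed array 5.

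LOC606466 also differed between the inbreds in its forward minus reversed difference, by -0.854 for H99 minus B73 (limma adjusted p = 0.0446). That difference was -0.631 on the H99 arrays and 0.223 on the B73 arrays. Over all clones 198 passed this test, 24 with the replicate number as a random block and 0 without H99 array 2, 4 or 5 or without B73 array 5, where limma had 896 to 1279 clones at an unadjusted p under 0.05.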

How the results depend on the processing

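The 104 named means kept their direction with the median of the 3 spots, with arrays scaled to one spread and with each array of their inbred left out. Of these 728 recomputed means, 725 moved by less than their SD between arrays and 3 by more. For the 520 means with 1 array left out this was fixed by arithmetic. Dropping 1 array of an inbred can shift its mean only by a fraction of that SD. The count of 725 is therefore no sign that these 520 means were stable. Of the 520, 57 fell under 0.15 in size. With the reversed arrays of both inbreds turned, chosen after seeing the data, 15 of the 104 named means changed sign. L1 became 0.135 for LOC542185, 0.08 for gpt, 0.074 for csu503(met) and 0.027 for tua3 (spots 9841 to 9843). L2 became 0.004 for rld1, -0.003 for rpp3, -0.052 for hsp18a, -0.084 and -0.014 for tua3 (spots 2281 and 7591), -0.029 and -0.148 for TUA1 (spots 7618 and 13663) and -0.001, -0.022, -0.246 and -0.14 for tua4 (spots 3928, 11437, 11773 and 15763). Of 553 recomputed counts and shares, 330 stayed within 1.5 times the reported count, or within the 95% Wilson interval of the reported share, and 223 did not; the cause was not tested. Orientation counts are clones past a limma adjusted p of 0.05 for forward minus reversed, given for the negative, the positive and all clones. A choice is that of the forward arrays read on the reversed ones, with clones meeting the rule again and clones called for L1, L2 or d.

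At a threshold of 0.10, the rule was met by 420 negative clones and 246 positive clones. The negative choice gave 458 chosen, 118 again (25.8%, beside 8.55% of all clones) and 11 called L2 (2.4%, beside 2.02%). The positive choice gave 347 chosen, 42 again (12.1%, beside 11%), 16 called L1 (4.61%, beside 7.81%), 14 called L2 (4.03%, beside 3.49%) and 37 called d (10.7%, beside 11.1%). At a threshold of 0.20, the rule was met by 107 negative clones and 19 positive clones. The negative choice gave 171 chosen, 91.8% same sign B73 (51.2% of all clones), 28 again (16.4%, beside 2%) and 4 called L2 (2.34%, beside 2.02%). The positive choice gave 55 chosen, 52.7% same sign B73 (48.8%), 0 again (beside 2.98%), 2 called L1 (3.64%, beside 7.81%), 2 called L2 (3.64%, beside 3.49%) and 4 called d (7.27%, beside 11.1%). With arrays scaled to one spread, the rule was met by 130 positive clones, and the B73 orientation count was 10 (negative), 3 (positive), 57 (all clones). The H99 orientation count was 30 (negative, 14.5%), 23 (positive), 791 (all clones, 15.1%), and the mean orientation count was 21 (negative), 24 (positive), 681 (all clones). The H99 minus B73 orientation count was 5 (negative), 0 (positive), 14 (all clones), and the L1 count was 22 (positive), 1128 (all clones). The L2 count was 62 (negative), 27 (positive), 312 (all clones), and the d count was 855 (all clones). The negative choice gave 88 again (30.3%, beside 7.27% of all clones) and 2 called L2 (0.69%, beside 1.91%). The positive choice gave 2 called L1 (1.42%, beside 3.97%), 4 called L2 (2.84%, beside 3.03%) and 11 called d (7.8%, beside 9.26%). With the reversed B73 arrays turned, the rule was met by 115 negative clones and 44 positive clones. With the reversed H99 arrays turned, the rule was met by 91 negative clones and 25 positive clones. With the reversed arrays of both inbreds turned, the rule was met by 67 negative clones and 51 positive clones, and the B73 orientation count was 204 (negative), 71 (positive), 2579 (all clones). The H99 orientation count was 79 (negative), 36 (positive), 306 (all clones), and the mean orientation count was 207 (negative), 78 (positive), 2013 (all clones). The H99 minus B73 orientation count was 83 (negative), 1 (positive), 1517 (all clones). With these signs turned, forward minus reversed becomes the sum of the orientations, which is close to the means that chose the clones. The orientation counts of this setting were thus shaped by the choice, and nothing is read from them. With every spot on its own, the rule was met by 608 negative clones and 235 positive clones. On the forward arrays alone, the rule was met by 152 positive clones. On the reversed arrays alone, the rule was met by 322 positive clones. After quantile normalization, the B73 orientation count was 7 (negative), 3 (positive), 60 (all clones), and the H99 orientation count was 53 (negative), 20 (positive), 889 (all clones). With the replicate block, the H99 minus B73 orientation count was 3 (negative), 0 (positive), 24 (all clones). With each clone's own variance, the B73 orientation count was 6 (negative), 6 (positive), 255 (all clones), and the H99 orientation count was 0 (negative), 0 (positive), 0 (all clones). The mean orientation count was 3 (negative), 5 (positive), 131 (all clones), and the H99 minus B73 orientation count was 0 (negative), 0 (positive), 0 (all clones). The L2 count was 0 (negative), 0 (positive), 7 (all clones), and the d count was 44 (positive), 694 (all clones). With array weights, the H99 orientation count was 63 (negative), 34 (positive), 1411 (all clones), and the mean orientation count was 24 (positive), 1125 (all clones). The H99 minus B73 orientation count was 27 (negative), 12 (positive), 876 (all clones). For clones chosen on the reversed and read on the forward arrays, the negative choice gave 73.3% same sign B73 (50.8% of all clones), 59.0% same sign H99 (49.2%), 31 called L2 (14.8%, beside 5.84%) and 84 called d (40%, beside 18.5%). The positive choice gave 320 chosen, 86.9% same sign B73 (49.2%), 29.7% same sign H99 (50.8%), 207 called L1 (64.7%, beside 26.4%), 4 called L2 (1.25%, beside 4.33%) and 97 called d (30.3%, beside 17.5%).

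Leaving out 1 array at a time gave 171 to 229 negative and 60 to 136 positive clones. The B73 orientation count was 11 to 63 (negative), 4 to 16 (positive) and 121 to 924 (all clones). The H99 orientation count was 0 to 26 (negative), 0 to 11 (positive) and 0 to 325 (all clones). The mean orientation count was 11 to 57 (negative), 7 to 19 (positive) and 116 to 572 (all clones). The H99 minus B73 orientation count was 0 to 30 (negative), 0 to 12 (positive) and 0 to 621 (all clones). The L1 count was 159 to 193 (negative), 35 to 62 (positive) and 1378 to 2445 (all clones). The L2 count was 1 to 40 (negative), 0 to 5 (positive) and 14 to 101 (all clones). The d count was 191 to 202 (negative), 59 to 75 (positive) and 735 to 1707 (all clones). The negative choice numbered 241 to 361, with 73.6 to 87.9% of one sign on B73 and 61.8 to 82.9% on H99 arrays, 39 to 71 meeting the rule again, and 116 to 129, 0 to 23 and 90 to 139 called for L1, L2 and d. The positive choice numbered 132 to 233, with 47.0 to 67.4% of one sign on B73 and 44.7 to 66.5% on H99 arrays, 3 to 23 meeting the rule again, and 1 to 14, 0 to 17 and 5 to 33 called for L1, L2 and d.

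The replicate numbers were checked as pairs. Deviations of same-numbered arrays from the mean of their inbred correlated at 0.17, 0.065, -0.306, 0.308 and -0.092. Deviations from the mean of their inbred and orientation correlated at -0.259, -0.114, -0.158, 0.199 and 0.199. Neither set of values had one sign, and the reported fits did not pair the arrays. Whether the numbers mark pairs is not settled by these values. With the replicate number as a random block, the orientation counts were 50 (negative), 13 (positive) and 805 (all) for B73, 22, 9 and 227 for H99 and 56, 18 and 637 for the mean, and the d counts were 205, 75 and 1390. Where a count is 0 over all clones, limma had 620 to 1290 clones at an unadjusted p under 0.05. Where 1 array of an inbred and orientation was left, the fit assumed that it varies like the others. Only 2 reversed arrays per inbred limit every reading that needs them. The arrays share RNA pools, channel intensities were not analysed here, and signal over background is therefore unknown.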

Other observations

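Among the named clones, the sets differed in the order of their EST accessions. Cut into 4 successive parts by that order, with 194, 198, 203 and 193 complete named clones, 15, 7, 5 and 6 clones were negative and 1, 4, 5 and 9 positive.

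Choosing clones on the reversed arrays and reading them on the forward ones gave another picture for the positive sign. Of 320 clones chosen as positive there, 86.9% were above 0 on the forward B73 arrays but 29.7% on the forward H99 arrays, beside 49.2% and 50.8% of all clones.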
